A study of Macaca fascicularis with 11 samples.

Results

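Some stretches of the Cynomolgus macaque muscle methylome held cytosines of low methylation and cytosines of high methylation side by side, and 16 such stretches of at most 1986 bp, termed mixed runs, are described here. They were chosen by the methylation ratios themselves: the listed CpG cytosines of chromosomes 1 to 20, without 10 and 11, were joined into a run wherever neighbours on either strand lay at most 1000 bp apart, and a run was mixed if its mean over the 11 animals was from 10% to 75% and it held at least 3 cytosines with a mean below 20% (low) and at least 3 above 80% (high). The 16 mixed runs were 0.664% of the 2408 runs with 6 or more cytosines, the smallest size that can meet the rule, and were taken from 9619 runs in all. They held 357 of 42613 cytosines (0.838%). Because low and high levels were required by the rule, the levels and steps below are descriptions and were not tested.

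The samples were skeletal muscle biopsies of 11 adult male Cynomolgus macaques (Macaca fascicularis), 1 per animal, which form a single group with no treatment given in the labels. Methylation was measured by reduced representation bisulfite sequencing (RRBS), which reads short fragments next to restriction sites after bisulfite has turned unmethylated cytosines into uracil. The deposited value is the methylation ratio of each cytosine in each animal, given here as a percentage. Read depth was unknown beyond the stated minimum coverage of 10 reads, so no counting interval could be attached to a ratio. The libraries of 4 animals (2606, 2646, 5296 and 5272) stood apart at weakly methylated cytosines: over the cytosines of these chromosomes with a mean below 10% in the other animals they had 4.47% to 5.27%, against 2.70% to 2.92% in the other 7, and a ratio of exactly 0 at 14.6% to 16.6% of cytosines, against 25.5% to 32.9%. Without these 4 animals there were 15 mixed runs, with a single border in 53.3%.

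In mammals, most CpGs are methylated, whereas CpG islands, the CpG-rich stretches found at many promoters, are usually not. Between an island and the methylated DNA around it the level changes over a border. RRBS samples CpG-rich fragments, so it can list both sides of a border while leaving the DNA between fragments unread.

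The name of a border fitted only some of the 16 runs. Ordered along the chromosome, the low and high cytosines changed from one kind to the other a single time in 8 runs (50%), changed 2 times in 3 runs and 3 or more times in 5 runs. The 8 runs with a single border were made mostly of low and high cytosines, with 7 intermediate cytosines of 86 (8.14%). Of these 7, 5 lay among the 16 cytosines of chr16:24845349-24845950. The other 8 runs held 176 intermediate cytosines of 271 (64.9%), but most of these lay in the 2 largest runs, with 99 of 107 on chr8 and 44 of 67 on chr5. The remaining 6 runs held 33 of 97 (34.0%), from 0 of 9 on chr14 to 10 of 19 on chr9. Dividing each run at its best single point accounted for 77.9% to 99.9% of the variance of cytosine means in the single-border runs and for 7.06% to 65.3% in the others. Both classes were set by the order of the same means, so this contrast follows in part from their definition.

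**Figure D1:**
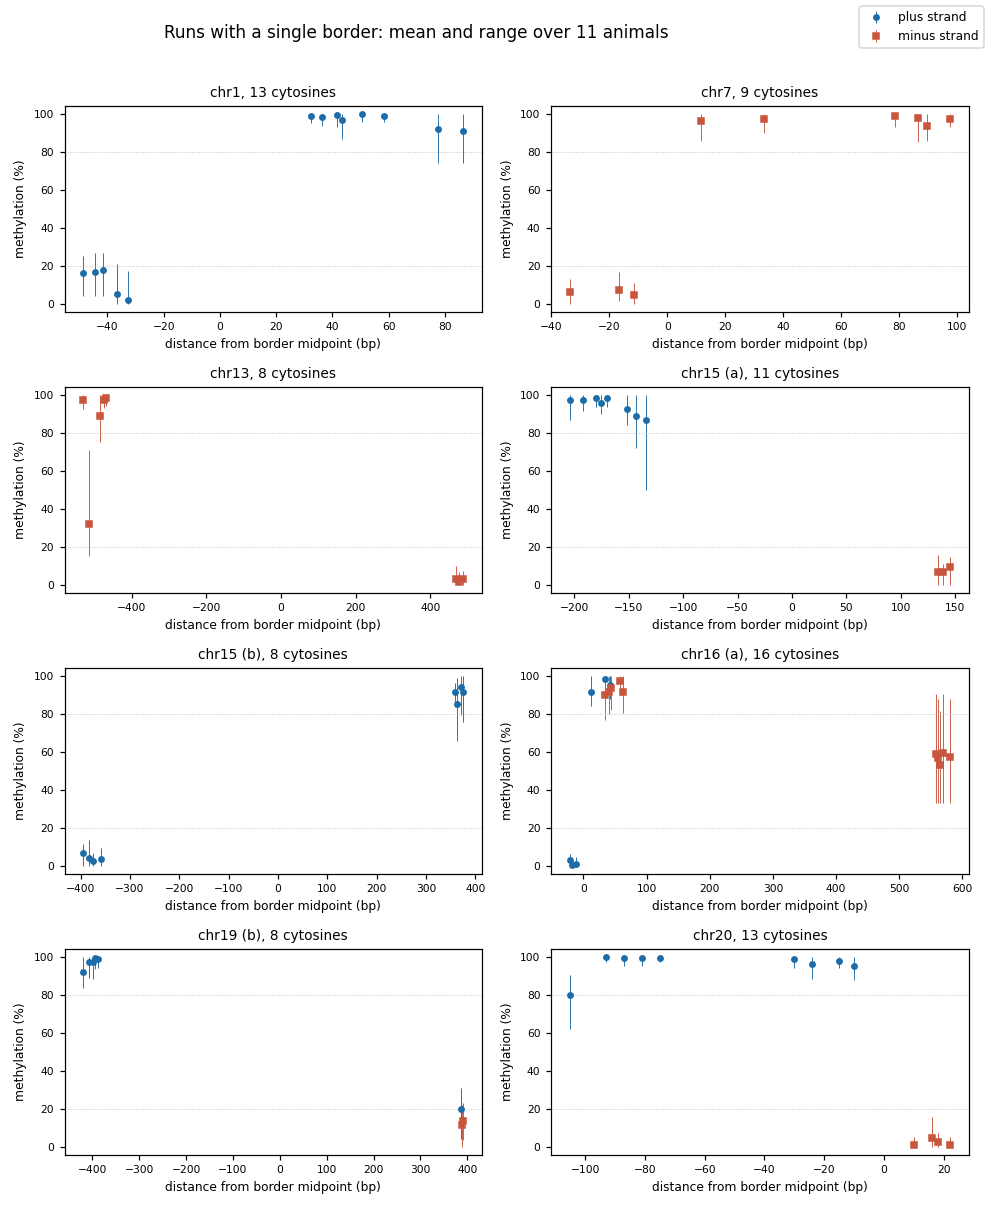
Methylation (%) of each cytosine in the 8 runs with a single border against its distance (bp) from the midpoint of the border, with points for the mean and lines for the range over 11 animals, and dotted lines at 20% and 80%. The letters a, b and c number the runs of a chromosome from its start, and no cytosine was listed across the gap between the low and high sides, which was 20 bp to 938 bp wide.

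The distance between the last cytosine of one kind and the first of the other was 20, 23, 24, 65, 268, 718, 774 and 938 bp (median 166.5 bp). The median of so few values was not stable: it was 65 bp without animal 2624, 2634, 2654, 2673 or 5295, 24 bp where runs were joined at 500 bp and 938 bp where they were joined at 2000 bp. At all 8 borders this distance is a stretch with no listed cytosine, so the place of the change within it, and whether intermediate levels occur there, is not known. The low side lay at the lower coordinate in 4 runs and at the higher coordinate in 4.

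The 4 narrow borders were in runs on chromosomes 1, 7, 16 and 20. In chr7:82834022-82834153, with 9 minus-strand cytosines, the 3 low cytosines averaged 0.794% in the lowest animal, 4.88% in the median and 13.4% in the highest, and the 6 high cytosines 91.8%, 97.4% and 100%. The change took place within 23 bp on 1 strand, and the step was 90.7 points ± 4.10 (SD, n = 11). In chr1:7884579-7884714, all 13 cytosines were on the plus strand and the 5 low ones ranged from 2.61% over a median of 10.8% to 22.8%. Its 8 high cytosines ranged from 92.4% over 97.3% to 99.5%. The low side was itself uneven, since the 3 cytosines farthest from the border had means of 16.04%, 16.6% and 17.6% and the 2 nearest to it 5.17% and 2.20%.

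In chr20:88250565-88250692, the narrowest border, the 8 high cytosines were all on the plus strand (96.6%, 97.8% and 100% in the lowest, median and highest animal) and the 4 low ones all on the minus strand (0%, 1.56% and 7.89%). The change of level and the change of strand fell between the same neighbours, 20 bp apart, so position and strand cannot be told apart in this run. In chr16:24845349-24845950, 3 plus-strand cytosines (0%, 1.67% and 3.91%) were followed after 24 bp by 8 high cytosines on both strands (87.9%, 93.2% and 99.3%). This run ended in a separate block of 5 minus-strand cytosines at intermediate levels, which is taken up below.

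The 4 wide borders joined fragments lying far apart. In chr15:4853836-4854185, 8 high plus-strand cytosines (88.2%, 93.5% and 100%) and 3 low minus-strand cytosines (0%, 8.97% and 12.9%) were 268 bp apart, and strand again changed with level. In chr15:6069884-6070653, all on the plus strand, 4 low cytosines (1.39%, 4.79% and 7.42%) and 4 high ones (83.3%, 91.4% and 97.2%) were 718 bp apart. In chr19:15621890-15622700, 5 high cytosines (94.0%, 96.5% and 100%) stood 774 bp from 3 low ones (7.41%, 16.7% and 23.4%). The low side of this last run was the least clear of the 8, with 1 cytosine at a mean of 19.99%, next to the bound of the rule.

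In chr13:60496952-60497969, with 8 minus-strand cytosines, 4 high cytosines (92.2%, 95.6% and 99.0%) were 938 bp from 3 low ones (0%, 2.27% and 6.25%). Its high side also held 1 intermediate cytosine, 16 bp from the start, which had a mean of 32.2% and ranged from 15.4% to 70.8% between animals while its neighbours stayed at 75% or above in each animal.

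The low and high sides were apart in each animal. Each high cytosine exceeded each low cytosine in 88 of 88 combinations of run and animal at the single borders and likewise in 88 of 88 in the other mixed runs, which the choice of runs on the mean partly fixes. The smallest step in any animal at a single border was 70.7 points. The best dividing point was the same in 11 of 11 animals in 7 of the 8 single-border runs and in 2 of the other 8.

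To read the levels in an animal that had no part in the choice, the runs were chosen on the other 10 animals and read in the animal left out. Between 15 and 16 runs were then mixed, and the left-out animal had 5.66% to 9.07% at their low cytosines (median 7.65%) and 89.9% to 94.2% at their high ones (median 92.5%). The 4 animals that stood apart at weakly methylated cytosines were also the highest at the low cytosines here, with 8.30% to 9.07% against at most 7.87% in the other 7, and their part in the range was not tested. The step was 84.9 points ± 1.67 (SD, n = 11), from 82.2 to 87.0. The smallest step of any run in the animal left out was from 52.0 points (animal 2673) to 74.3 points (animal 2624). Low and high cytosines were fully apart in all runs but 1 in 1 animal (14 of 15 runs in animal 2673). Of the runs chosen on the other 10 animals, 11 to 15 also met the rule in the animal left out (median 13). Applied to each animal alone, the rule gave 15 to 22 runs (median 20), of which 12 to 15 were among the 16, and 7 of the 16 were mixed in each of the 11 animals.

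**Figure D2:**
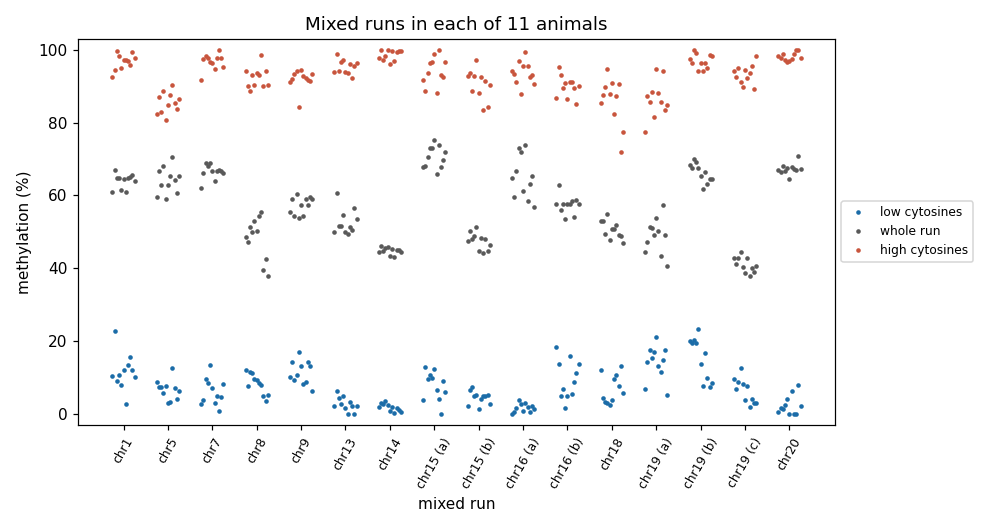
Methylation (%) of the low cytosines, the high cytosines and the whole run in each of 11 animals (points, ordered as in the deposited columns) for the 16 mixed runs. Low and high levels lie far apart in each run, and the run means on chr8, chr16 (a) and chr19 (a) differ most between animals.

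The 8 runs without a single border were of several kinds. In chr14:76640206-76640325, 4 high minus-strand cytosines (96.2%, 99.5% and 100% in the lowest, median and highest animal) and 4 low plus-strand cytosines were joined by 1 further low minus-strand cytosine. That cytosine, at position 76640210, had a mean of 3.54% and lay 2 bp from a cytosine at 98.4% on the same strand. The 5 low cytosines together had 0.235%, 1.90% and 3.56%. This run had the smallest SD of the run mean between animals among the 16, 0.946 points.

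The largest run, chr8:13223454-13224378, held 107 cytosines, of which 99 were intermediate, 3 low (3.64%, 8.44% and 12.1%) and 5 high (88.6%, 92.9% and 98.6%). The 3 low ones were all on the plus strand, with means of 15.6%, 5.63% and 3.76%. The minus-strand cytosines of the same CpGs had 51.0%, 26.6% and 40.6%. The run met the rule through 8 cytosines scattered in an intermediate stretch, and not through a border. It also had the largest SD of the run mean, 5.91 points, with means of 37.8%, 39.5% and 42.5% in animals 5295, 2654 and 2673 and from 47.2% to 55.5% in the other 8. In the block of 22 cytosines at its end the same 3 animals were again the lowest, with 28.6%, 33.1% and 34.3%, and the highest animal had 59.8%.

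The run chr5:185146965-185148950, with 67 cytosines, had 44 intermediate ones and 5 changes between 4 low (3.08%, 7.12% and 12.7%) and 19 high cytosines (80.8%, 85.3% and 90.2%). Its last 7 cytosines, 966 bp beyond the rest, averaged 13.2% in the lowest animal, 18.9% in the median and 31.9% in the highest, below the 73.4% ± 4.47 (SD, n = 11) of its largest block. Single cytosines stood apart within dense stretches as well: the minus-strand cytosine at 185147958 had a mean of 4.29%, and that at 185147920 had 99.9%.

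In chr19:43493082-43494434, 24 cytosines with the lowest run mean of the 16 (41.0%), 14 were low (1.88%, 6.78% and 12.7%) and 8 high (89.3%, 93.6% and 98.4%). Within its block of 12 cytosines spanning 43493486 to 43493519, 10 were low, while 2 plus-strand cytosines had 100% and 95.6%. At both of these CpGs the minus-strand cytosine was low, at 4.65% and 2.31%. Farther along, a block of 6 plus-strand cytosines had 85.9% ± 2.27 (SD, n = 11) and a pair of minus-strand ones 92.1% ± 5.51.

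In chr19:1069429-1070430, with 14 cytosines, the 5 high ones were all on the plus strand (77.4%, 85.7% and 94.7%) and the 3 low ones all on the minus strand (5.13%, 14.7% and 21.2%). Its mean step of 72.4 points was the smallest of the 16. In chr9:428003-429454, with 19 cytosines, 4 low (6.19%, 10.7% and 16.9%) and 5 high cytosines (84.3%, 92.2% and 94.6%) alternated with 10 intermediate ones. The minus-strand cytosine at 429439 in it ranged from 5.45% to 87.5% between animals.

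The last 2 runs were sparse. In chr16:58473741-58475065, with 14 cytosines, 3 were low (1.52%, 8.80% and 18.5%) and 4 high (85.1%, 90.2% and 95.3%). A plus-strand cytosine at 9.60% was there paired with a minus-strand one at 94.2% in the same CpG. In chr18:24274679-24276004, with 17 cytosines, 4 were low (2.50%, 5.83% and 13.1%) and 5 high (71.9%, 87.7% and 94.7%). Its smallest step in any animal, 58.8 points, was the smallest among the 16 runs as chosen on all animals.

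**Figure D3:**
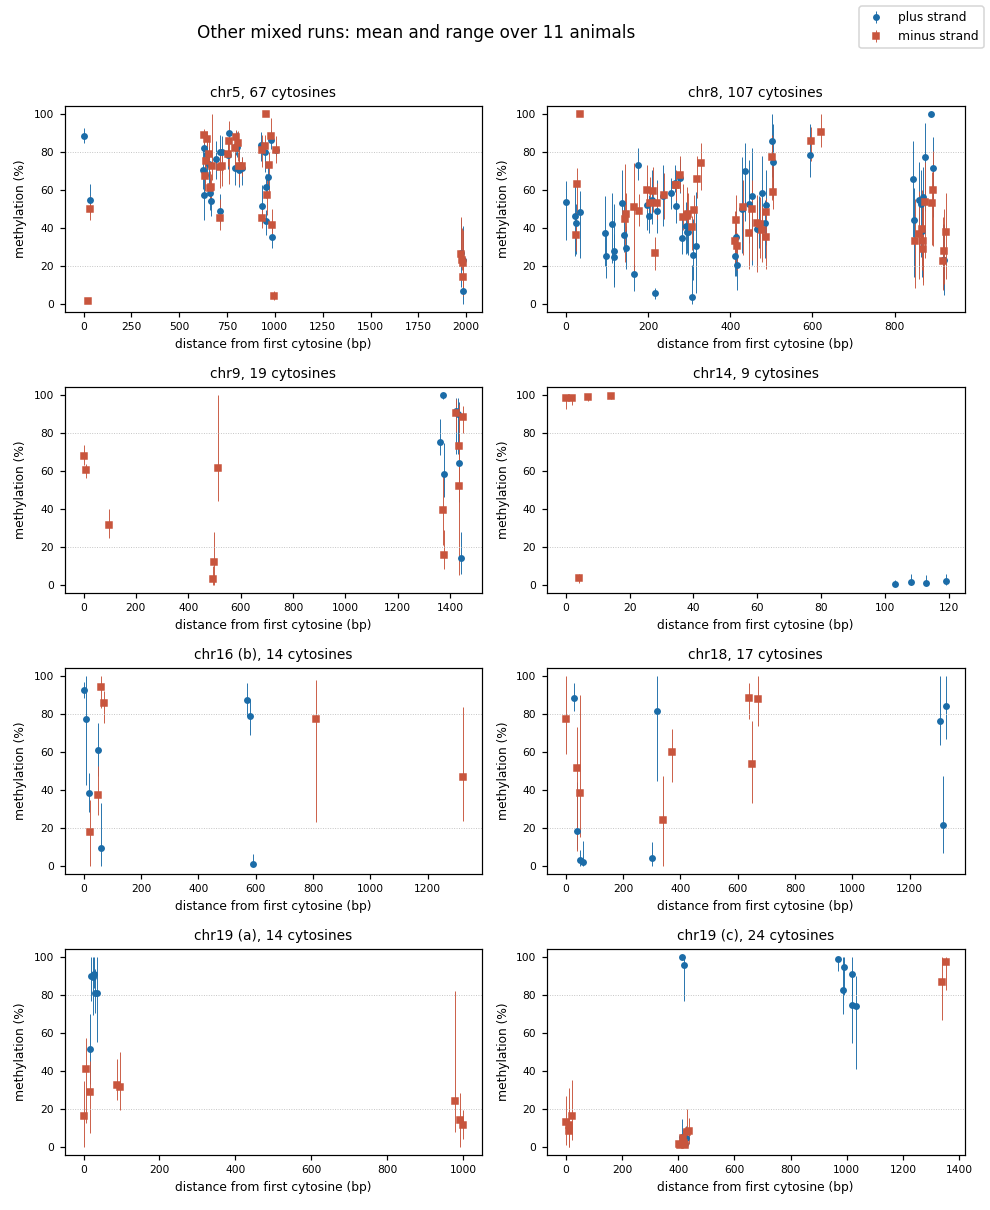
Methylation (%) of each cytosine in the 8 mixed runs without a single border against its distance (bp) from the first cytosine of the run, with points for the mean and lines for the range over 11 animals, and dotted lines at 20% and 80%. Low and high cytosines alternate, and 99 of the 107 cytosines of the chr8 run are intermediate.

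The block closing the chr16 run with a narrow border varied most between animals as a unit among blocks of 2 or more cytosines. Its 5 cytosines averaged 33.3% in the lowest animal, 56.8% in the median and 87.5% in the highest (57.1% ± 17.9, SD, n = 11), while within an animal they differed by 8.35 points on average. The 5 cytosines thus moved together between animals. All 5 lay on the minus strand from 24845929 to 24845950, so the same reads may cover them. The part of shared reads in this agreement was not tested. The low and high cytosines of the same run, 496 bp away or more, showed no such range.

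**Figure D4:**
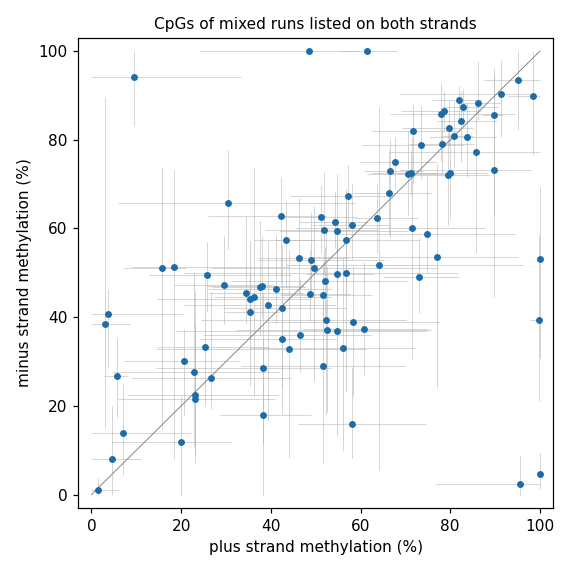
Minus-strand against plus-strand methylation (%) at the 95 CpGs of mixed runs listed on both strands, with points for the mean and grey lines for the range over 11 animals, and the line of equal levels. Most points follow the line, and 5 CpGs differ by more than 50 points.

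Strand entered several of the mixed runs. All low cytosines were on one strand and all high ones on the other in 3 runs, those of chr20, chr15:4853836-4854185 and chr19:1069429-1070430. Of the 95 CpGs listed on both strands, in 9 of the runs, 22 (23.2%) differed between the strands by more than 20 points and 5 (5.26%) by more than 50, with a median difference of 7.98 points. In the other runs with 6 or more cytosines, 12.3% of 2201 CpGs differed by more than 20 points and 2.36% by more than 50, with a median of 3.00. The pooled share in mixed runs was set by the 2 largest, chr5 and chr8, which held 77 of the 95 CpGs and 12 of the 22. In the other 7 runs, a division made after the data were seen, 10 of 18 CpGs differed by more than 20 points and 4 of 18 by more than 50. The rule selects runs that hold both levels, so these shares were not tested. Likewise, 17 of 293 pairs of neighbours at most 20 bp apart (5.80%) differed by more than 60 points in mixed runs, against 158 of 17399 (0.908%) in the others.

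Most of the mixed runs were long and broken, but those on chr1, chr7, chr14 and chr20 spanned only 120 to 136 bp. Their median length was 868 bp (120 to 1986 bp), with 8 to 107 cytosines (median 13.5), whereas the 486 other runs of 6 or more cytosines with means from 10% to 75% had a median length of 80 bp. A gap of more than 200 bp without a listed cytosine lay inside 12 of the 16 (75%), against 26.5% of those 486 runs. The rule needs at least 3 low and 3 high cytosines in a run, so these lengths and gaps were not tested. The mixed runs were spread over 12 of 18 chromosomes, with 3 on chromosome 19 and 2 each on chromosomes 15 and 16. Within 5 Mb of the outermost listed cytosine of their chromosome lay 5 of the 16 (31.25%), against 29.2% of the 486 runs.

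The rule left similar runs just outside. The run chr2:583-662 held 3 low and 16 high cytosines and missed only by its mean of 75.8%, and a further 29 runs missed only by having 2 low or 2 high cytosines, while 8 had 2 of each. Of the 16 members, 8 had exactly 3 low or exactly 3 high cytosines, and the highest mean among the 16 was 70.6%. The number of mixed runs also followed the distance at which cytosines are joined, with 9 at a gap of 500 bp and 27 at 2000 bp. With both strands of a CpG counted once there were 12 mixed runs, of which 8 had a single border.

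Whether mixed runs varied more between animals than other runs was asked at the level of the cytosine. Spread was the absolute difference of an animal from the mean of the other 10, with runs chosen on those 10 and compared with other runs at equal methylation level. Read depth was unknown and could not be matched, and its part in any difference of spread was not tested. Intermediate cytosines had a spread of 8.28 points ± 1.38 (SD, n = 11) in mixed runs and 10.9 ± 0.960 in other runs, higher in mixed runs in 0 of 11 animals (difference -2.66, two-sided permutation test over animals, p = 0.000977, Benjamini-Hochberg adjusted p = 0.00293). High cytosines had 4.14 ± 0.609 against 4.84 ± 0.283, higher in 1 of 11 (difference -0.707, permutation p = 0.00195, adjusted p = 0.00293). Low cytosines had 4.19 ± 0.492 against 4.69 ± 0.465, higher in 3 of 11 (difference -0.504, permutation p = 0.0195, adjusted p = 0.0195). These p-values measure agreement between animals over nearly the same runs, and do not cover variation between runs. Each animal also entered the means set against the other animals, so the 11 differences were not independent.

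The differences at intermediate and high cytosines were not seen without the 2 largest runs, those of chr8 and chr5. Without them, a choice made after the data were seen, the difference was 0.126 points at intermediate cytosines (permutation test, adjusted p = 0.869) and 0.0824 at high ones (adjusted p = 0.869). With each run weighted equally it was -0.0909 (adjusted p = 0.928) and -0.243 (adjusted p = 0.275). Bounds of 0.1 and 0.9 turned the direction at intermediate cytosines, to a spread higher in mixed runs in 8 of 11 animals (difference 1.82, permutation test, adjusted p = 0.145), and left -0.00565 at high ones (adjusted p = 0.968). High cytosines also did not pass with runs joined at 500 bp (0.0186, permutation test, adjusted p = 0.929) or with chromosomes 10 and 11 included (-0.0270, adjusted p = 0.822). At low cytosines the difference was -0.430 without the 2 largest runs (permutation p = 0.0430, adjusted p = 0.129) and -0.634 with each run weighted equally (permutation p = 0.0195, adjusted p = 0.0586). It was smaller and did not pass with runs joined at 2000 bp (-0.159, permutation test, adjusted p = 0.483), with chromosomes 10 and 11 included (-0.279, adjusted p = 0.0776) and without the 4 animals that stood apart (-0.342, permutation test, adjusted p = 0.156). Nor did it pass without animal 2624 (-0.385, adjusted p = 0.104), 2666 (-0.323, adjusted p = 0.127) or 2673 (-0.353, adjusted p = 0.0762). The direction at low cytosines turned without the comparison at equal level, to a spread higher in mixed runs in 9 of 11 animals (difference 0.612, permutation p = 0.00586, adjusted p = 0.00879). Without ratios of exactly 0 or 1 the difference was 0.0430 (permutation test, adjusted p = 0.843). In simulated data without a difference in which the cytosines of a run moved together, p-values below 0.05 were well above their nominal rate at low and intermediate cytosines, so the p-values printed for these classes may be too small.

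**Figure D5:**
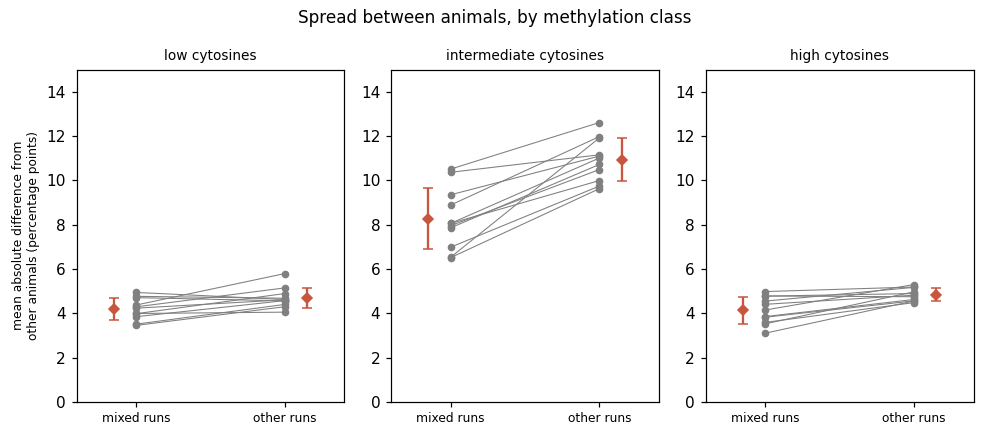
Spread between animals (mean absolute difference from the other animals, percentage points) at low, intermediate and high cytosines of mixed runs and of other runs at equal level. Lines join the values of 1 animal, and diamonds with bars give the mean and SD over 11 animals; at intermediate cytosines all lines rise toward the other runs, a difference that was not seen without the 2 largest mixed runs.

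The mean of a whole run differed from that of the other animals by 2.52 points ± 0.388 (SD, n = 11) in mixed runs and by 6.10 ± 0.731 in other runs of equal mean. The difference of -3.58 points was -3.78 among runs of 6 to 20 cytosines and -3.82 without the 2 largest mixed runs. It is given without a test, because data simulated without any difference in spread gave the same direction. Mixed runs held more cytosines (median 13.5 against 8) and, by the rule, cytosines near both ends of the scale, and the part of either in the difference was not tested.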

How the data were processed

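RRBS ratios of 11 muscle biopsies were used. The authors removed bases of quality below 20, aligned reads with RRBSMAP to the genome of Yan et al., kept CpGs with a coverage of at least 10 and estimated each methylation ratio with methratio. The deposited ratio, or methylation fraction, runs from 0 to 1, and the table lists 61399 cytosines with a value in all animals. Labels and methods differ on DNA amount, enzymes and bisulfite kit. Columns carry animal numbers absent from the labels and were used as 11 animals of 1 group.

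Runs, borders and spread were computed with Python 3.11.15, numpy 2.4.6, pandas 2.3.3 and matplotlib 3.10.9. Spread was standardised in level bins of 0.02 with at least 10 comparison cytosines, and tested over animals by all 2048 sign changes, two-sided. The rule for named runs (size, SD of the run mean, border width, border position, means nearest the limits) would leave out few, so all 16 are described. Members and lists were chosen with earlier results of these data known.

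The tests departed from the plan of 5 comparisons. The test of the run mean was dropped after calculations were tested on simulated data, where it passed the threshold without any true difference, and its value is given without p. The comparison of spread near and far from a border could not be made: at most 2 far cytosines fell in a level bin, and 10 were needed. Adjustment is therefore over 3 comparisons. Sequence and genes of this build and read counts behind the ratios were not analysed here.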

Additional observations from a re-analysis of the deposited data

How the results depend on the processing

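The count of 16 runs depended on the rule. It was 9 with a gap of 500 bp and 27 with 2000 bp, 8 with bounds of 0.1 and 0.9 and 30 with 0.3 and 0.7, 5 with plus-strand cytosines alone and 3 with minus-strand ones alone. Counting both strands of a CpG once gave 12 runs, 8 of them with a single border. Including chromosomes 10 and 11 gave 24 runs, 15 of them with a single border. The single-border share of 50% became 63.0% (gap of 2000 bp), 75% (bounds of 0.1 and 0.9), 66.7% (both strands of a CpG counted once), 60% (plus strand), 66.7% (minus strand), 62.5% (chromosomes 10 and 11 included) and 42.1% (chromosome X and unplaced sequence included, added after seeing the data). The median border of 166.5 bp became 938 bp with a gap of 2000 bp, 480.5 bp on the minus strand and 412 bp with chromosomes 10 and 11, but 24 bp with a gap of 500 bp and 65 bp with plus-strand cytosines. Leaving out 1 animal gave 15 to 16 runs, shares of 46.7% to 50% and borders of 65 to 166.5 bp, with 65 bp without animal 2624, 2634, 2654, 2673 or 5295. The spread difference at low cytosines was 0.612 points without standardisation (adjusted p = 0.00879, opposite in direction), 0.0430 without ratios of exactly 0 or 1, -1.05 with bounds of 0.3 and 0.7 (adjusted p = 0.0195), -0.774 with a gap of 500 bp (adjusted p = 0.0132), -0.159 with a gap of 2000 bp, -0.634 with runs weighted equally, -0.279 with chromosomes 10 and 11, -0.342 without the 4 animals with higher means at low cytosines, and -0.430 without the 2 largest runs (added after seeing the data). Leaving out 1 animal gave -0.577 to -0.323, and 8 of 11 such values passed the threshold, the others being those without animals 2624 (-0.385), 2666 (-0.323) and 2673 (-0.353). At high cytosines it was 0.0186 with a gap of 500 bp, -0.00565 with bounds of 0.1 and 0.9, -0.243 with runs weighted equally, -0.0270 with chromosomes 10 and 11 and 0.0824 without the 2 largest runs, none of which passed the threshold, and -0.736 to -0.548 leaving out 1 animal. At intermediate cytosines it was 1.82 with bounds of 0.1 and 0.9, -0.0909 with runs weighted equally and 0.126 without the 2 largest runs, none of which passed, and -2.89 to -2.41 leaving out 1 animal. With a gap of 500 bp the difference at intermediate cytosines was smaller but passed (-1.76, permutation test, adjusted p = 0.0132). Adjusted p-values over all alternatives ran from 0.00781 to 0.843 (low), 0.00146 to 0.968 (high) and 0.00146 to 0.928 (intermediate). The untested run-mean difference of -3.58 points stayed within 1 SD in 22 of 22 alternatives, -3.83 to -3.51 leaving out 1 animal. The cause of these changes was not tested. The comparison near and far from a border gave no value in its planned form, and its alternatives were not run. Coverage minimums were not varied, since ratios carry no read counts.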

Other observations

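In 2 of the mixed runs the listed cytosines of a strand were spaced in multiples of 10 bp. This held for 11 of 11 gaps of at most 100 bp between neighbours on the same strand in chr18:24274679-24276004 and for 9 of 9 in chr16:58473741-58475065, against 5.58% of 18425 gaps in other runs with 6 or more cytosines. The spacing was noticed after the values were seen and was not tested. Exactly 100% was listed in each of the 11 animals for 3 cytosines of mixed runs, at 13223489 (minus strand) and 13224343 (plus strand) in the chr8 run and at 43493497 (plus strand) in the chr19 run, and exactly 0% in each animal for 0. On the other strand, the same 3 CpGs had means of 48.5%, 53.1% and 4.65%, so full methylation was listed on 1 strand only.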
